A study of Bos taurus with 6 samples.

Results

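The genes described here encode fibrillar collagen chains (COL1A2 and COL5A2), a basement membrane collagen chain (COL4A2) and proteins of the provisional matrix (FN1, fibronectin, and POSTN, periostin). They were chosen by gene symbol, with earlier results of these data known. Every transcript listed under those 5 symbols was kept, which gave 7 of the 5288 transcripts in the table of the series. The table covers longissimus muscle of 3 adult Qinchuan cattle, aged 24 months, and of 3 Qinchuan embryos at 90 days, all collected at a slaughterhouse, with no treatment named in the labels. Ribosomal RNA was depleted before sequencing, although the sample labels name polyA RNA as the molecule. Each transcript has 1 FPKM value per stage (fragments per kilobase of transcript, scaled to the number of mapped fragments). The spread between animals is therefore unknown, no test was run, and the table does not give the number of fragments behind a value. The table lists only transcripts that the authors called different between the stages, and each of them differs at least 2-fold or is listed at 0 in 1 stage, so that presence in it fixes a difference and leaves its direction free.

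The extracellular matrix of muscle has layers that are built in different ways. Type I collagen forms the thick fibrils of the connective tissue sheaths, and type V collagen assembles into the same fibrils and limits their width. Type IV collagen forms a network in the basement membrane that wraps each muscle fibre and each capillary. Fibronectin is assembled by cells into an early, provisional network on which collagen is laid down, and periostin is a secreted protein that binds fibronectin and collagen in growing and healing tissue.

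All 7 transcripts were lower in adult muscle than in embryonic muscle by at least 2-fold or with an adult value of 0, and 6 of them by at least 4-fold or with an adult value of 0. Over the whole table, 9.68% of the transcripts were lower in the adult by at least 2-fold, and 5.5% by at least 4-fold. The median log2 ratio of adult over embryonic FPKM was -2.97 for the 6 member transcripts with a value above 0 in both stages, whereas it was 2.71 over the whole table and -2.12 over the transcripts that were lower in the adult. The smallest difference among the members was that of COL4A2 and the largest that of POSTN. In bulk tissue, fewer cells of a type and less RNA per cell cannot be told apart.

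**Figure D1:**
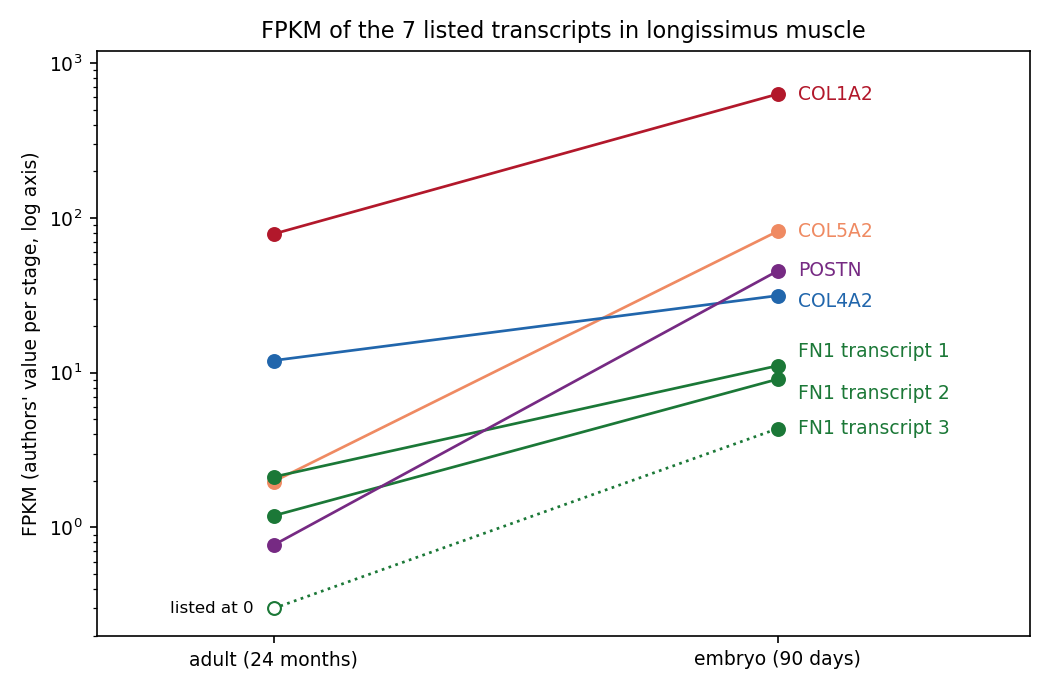
FPKM of each listed transcript of COL1A2, COL5A2, COL4A2, FN1 and POSTN in adult (left) and embryonic (right) muscle, on a log axis, with 1 value per stage and no error bars because the table holds no replicates. Lines join the values of a transcript, and the open circle stands for the FN1 transcript listed at 0 in the adult. COL5A2 and POSTN lie above COL4A2 in the embryo and below it in the adult.

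COL1A2, the alpha 2 chain of type I collagen, was the most abundant member in both stages. Its transcript (ENSBTAT00000033863, locus chr4:11622753-11661575) had an FPKM of 78.7 in adult muscle and 630.2 in embryonic muscle. The adult level was thus 8.01-fold lower, with a log2 ratio of -3.00. Among the transcripts that were lower in the adult, only 3 had a higher embryonic FPKM than COL1A2, which ranked 4 of 512. In the adult it still exceeded 86.6% of the listed transcripts, so that this gene was highly expressed at both ages despite the difference.

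COL5A2, the alpha 2 chain of type V collagen, differed far more than its fibril partner. Its transcript (ENSBTAT00000038684, locus chr2:7139278-7300332) had 1.98 FPKM in the adult and 81.9 FPKM in the embryo, a 41.4-fold lower adult level with a log2 ratio of -5.37. It ranked above 97.8% of the listed transcripts in the embryo. In the adult it ranked above 13.9% of them. COL11A1, a chain of the cartilage fibril collagen type XI, had the next higher log2 ratio in the table, at -5.26.

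COL4A2, the alpha 2 chain of type IV collagen, had the smallest difference among the members. Its transcript (ENSBTAT00000005916, locus chr12:89112153-89168921) had 12.0 FPKM in the adult and 31.4 FPKM in the embryo. The adult level was 2.62-fold lower, with a log2 ratio of -1.39, and this transcript alone among the members missed the 4-fold limit. It lay above 52.2% of the listed transcripts in the adult and above 96.0% in the embryo.

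FN1 has 3 listed transcripts, all of the same locus (chr2:103881401-103950648), and each was lower in the adult. The most abundant one (ENSBTAT00000010922) had 2.12 FPKM in adult and 11.1 FPKM in embryonic muscle, a 5.23-fold lower adult level with a log2 ratio of -2.39. The next (ENSBTAT00000010926) had 1.19 FPKM in the adult and 9.08 FPKM in the embryo, which is 7.62-fold lower with a log2 ratio of -2.93. The third (ENSBTAT00000010925) is listed at 0 in the adult and had an embryonic FPKM of 4.35, and no fold is given for it because the table holds no fragment counts that would set a lower limit. Summed over the 3 transcripts, FN1 had 3.31 FPKM in the adult and 24.5 FPKM in the embryo, a 7.40-fold lower adult level, which is close to that of COL1A2.

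The FN1 transcripts did not keep the same proportions. The most abundant one made up 64.0% of the summed FN1 FPKM in the adult and 45.2% in the embryo, the next 36.0% and 37.0%, and the one listed at 0 in the adult 17.7% in the embryo. Cufflinks divides fragments that fit several transcripts of a gene among them, so the sum over the listed transcripts rests on fewer assumptions than the value of a single one. Only transcripts called different are listed, so the sum, its fold and these shares leave out any other FN1 transcript. The 3 transcripts share a locus and are not independent measurements of the gene.

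POSTN showed the largest difference among the members. Its transcript (ENSBTAT00000016499, locus chr12:24241696-24276724) had 0.770 FPKM in adult and 45.4 FPKM in embryonic muscle, a 59.0-fold lower adult level with a log2 ratio of -5.88. Only 11 of the 5248 transcripts with a value above 0 in both stages had a lower log2 ratio, so that POSTN ranked 12 from the lowest. The adult value is under 1 FPKM, and the size of this fold rests on it.

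**Figure D2:**
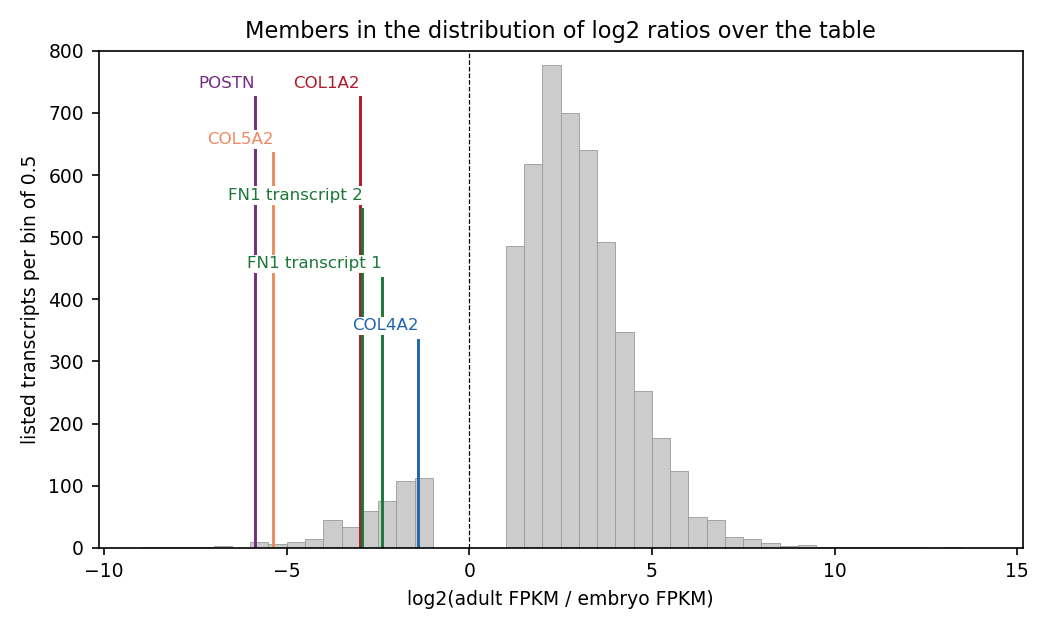
Grey bars give the number of listed transcripts in bins of 0.5 of log2(adult FPKM / embryo FPKM), over the 5248 transcripts above 0 in both stages, and coloured lines mark the 6 member transcripts with a ratio. The line heights carry no value. The members lie between -5.88 and -1.39, while the table median is 2.71, and no listed transcript lies between -1 and 1.

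Within each stage, the members can be set against each other without regard to how the stages were scaled. Per 100 FPKM of COL1A2, adult muscle had 2.51 FPKM of COL5A2 and embryonic muscle 13.0 FPKM, so that the type V chain was 5.17 times as abundant relative to the type I chain in the embryo. POSTN stood at 0.978 FPKM in the adult against 7.21 FPKM in the embryo on this scale, which is 7.37 times as much in the embryo. COL4A2 differed in the other direction, with 15.2 FPKM in the adult and 4.99 FPKM in the embryo, a relative level 3.05 times as high in the adult. FN1, summed over its transcripts, had 4.21 FPKM in the adult and 3.89 FPKM in the embryo for each 100 FPKM of COL1A2. Without replicates it is unknown how far such a ratio varies between animals. Transcripts of these genes outside the table are not counted in any of these ratios.

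The order of the genes by level differed between the stages as a result. In the adult the order from highest to lowest was COL1A2, COL4A2, FN1, COL5A2 and POSTN, and in the embryo it was COL1A2, COL5A2, POSTN, COL4A2 and FN1. COL4A2 had 6.05 times the FPKM of COL5A2 in the adult and 0.384 times in the embryo. POSTN had 0.232 times the summed FPKM of FN1 in the adult and 1.85 times in the embryo. Of the summed FPKM of the 7 transcripts, which was 96.7 in the adult and 813 in the embryo, COL1A2 took 81.4% in the adult and 77.5% in the embryo. COL4A2 took 12.4% and COL5A2 2.05% in the adult, against 3.86% and 10.1% in the embryo.

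**Figure D3:**
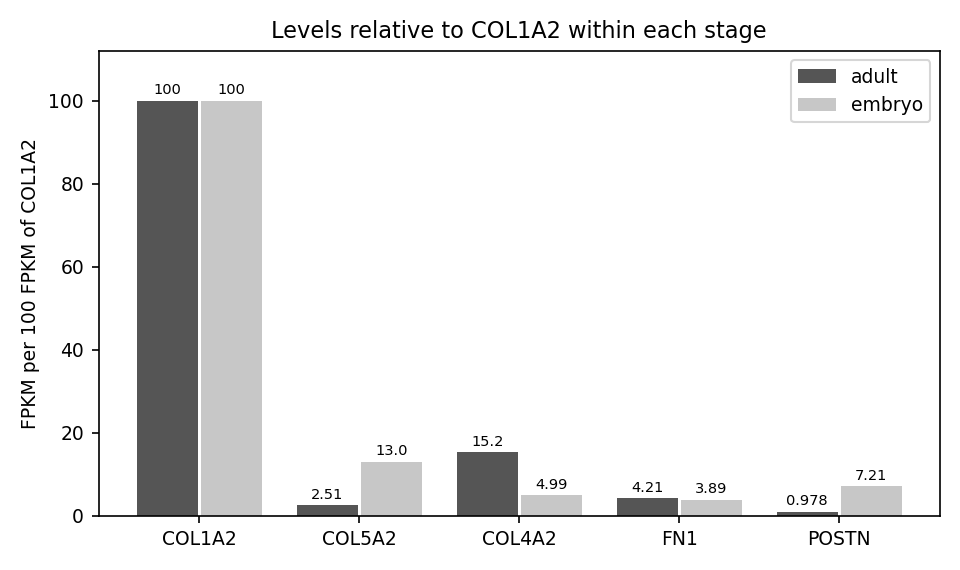
Bars give the listed FPKM of each gene per 100 FPKM of COL1A2 in the same stage, dark for adult and light for embryonic muscle, with the listed transcripts of FN1 summed and no error bars because there is 1 value per stage. Relative to COL1A2, COL5A2 and POSTN are lower in the adult, COL4A2 is higher, and FN1 stands at 4.21 and 3.89.

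The scaling between the stages matters for absolute statements, since 90.3% of the listed transcripts were at least 2-fold higher in the adult. The study also reports a lower exonic share, a higher intronic share and a lower mapping ratio of reads in embryonic than in adult libraries. What this does to FPKM between the stages was not tested. Of the summed FPKM of all listed transcripts, which was 674416 for the adult against 70749.5 for the embryo, the members made up 0.0143% in the adult and 1.15% in the embryo. Centring on the table median lowers every log2 ratio by 2.71, centring on the ribosomal proteins of the cytosol by 2.31, scaling both stages to the same FPKM total by 3.25 and centring on housekeeping genes by 3.49. All 4 shifts come from listed transcripts, which were called different and mostly higher in the adult. Of 30 housekeeping symbols, 19 were matched, all higher in the adult, and symbols without a matching row could not enter. GAPDH was not matched, although the study lists G3PDH, another name for that gene, as higher in the adult. The shift of the housekeeping genes leaves it out. A turn under a scaling therefore does not decide the direction of a transcript. Each scaling subtracts the same amount from every transcript, so that the members, which start below 0, can only move further down. A transcript higher in the adult is said to turn lower wherever its log2 ratio is under that amount. It then falls below 0, with no 2-fold limit. Relative to the table median, the log2 ratios were -5.71 for COL1A2, -8.08 for COL5A2, -4.10 for COL4A2, -5.09 and -5.64 for FN1 and -8.59 for POSTN. With a pseudocount of 1 FPKM, COL5A2 (-4.80) and POSTN (-4.71) changed places as the largest difference.

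**Figure D4:**
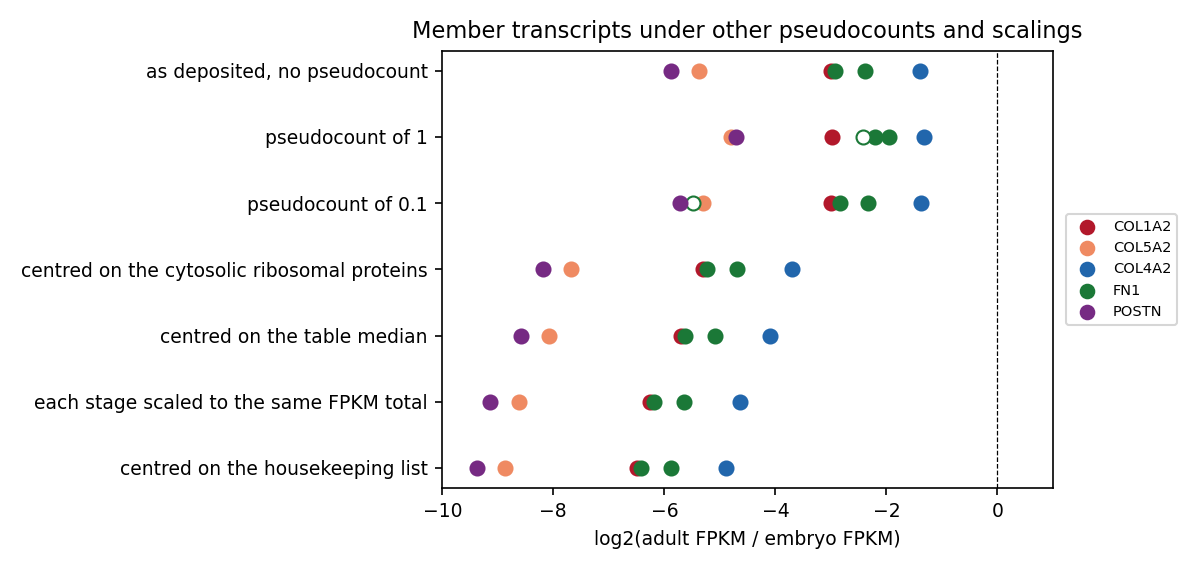
Log2(adult FPKM / embryo FPKM) of the member transcripts (points, coloured by gene) as deposited, with pseudocounts of 1 and 0.1 FPKM, and under 4 scalings that lower all ratios by 2.31 to 3.49. The open circles are the FN1 transcript listed at 0 in the adult, which has a value only with a pseudocount. The scalings move all points by the same amount, the pseudocounts move those with low FPKM most, and COL4A2 is nearest to 0 in each row.

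COL1A2 and COL5A2 were set beside the other fibrillar collagens. Of 11 symbols, COL1A2 and COL5A2 included, 5 are listed. All 5 transcripts were lower in the adult, or 3 of 3 without the members. Their median log2 ratio of -5.26 is that of COL11A1, with 0.106 FPKM in the adult, and it is -3.41 with a pseudocount of 1, -4.34 with one of 0.1 and -3.52 over the 3 transcripts with an FPKM of at least 1 in both stages. COL1A2 made up 84.9% of the summed FPKM of these 5 transcripts in the adult against 73.1% in the embryo, and COL5A2 made up 2.14% and 9.50%. COL1A1, the alpha 1 chain of type I collagen and the partner of COL1A2, had 11.9 FPKM in the adult against 136 FPKM in the embryo, an 11.4-fold lower level near the 8.01-fold of COL1A2. COL2A1, the collagen of cartilage, had 0.0313 FPKM in the adult against 9.98 FPKM in the embryo, a larger difference than that of COL5A2, at a lower level in both stages. The symbols COL3A1 and COL5A1 gave no row, and these genes were not analysed here. Of 22 symbols of fibril-associated and other collagens, COL6A6 (log2 ratio -1.80) and COL6A2 (-1.01) are listed, both lower in the adult by less than COL1A2 and COL5A2.

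COL4A2 was set beside the other basement membrane genes. With COL4A2 included, 3 of 25 symbols are listed, all 3 lower in the adult with a median log2 ratio of -1.40. The median was -3.12 over the 2 transcripts without COL4A2. AGRN, agrin, which organizes the neuromuscular junction, had 1.70 FPKM in the adult against 4.49 FPKM in the embryo, and its 2.63-fold lower level was nearly that of COL4A2. COL18A1, the precursor of endostatin, had 0.606 FPKM in the adult against 17.5 FPKM in the embryo, a 28.8-fold lower level. The small difference of COL4A2 was therefore not shared by both other listed genes of this layer. COL4A2 took 83.8% of the summed FPKM of the 3 transcripts in the adult and 58.9% in the embryo. COL4A1, whose chain pairs with that of COL4A2, gave no row and was not analysed here.

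FN1 and POSTN were set beside other genes of the provisional and matricellular matrix, where 12 of 28 symbols are listed with 15 transcripts, 10 lower and 5 higher in the adult (median log2 ratio -2.25). Without FN1 and POSTN, 6 of 11 transcripts were lower. POSTN made up 0.499% of the summed FPKM of the 15 transcripts in the adult against 27.6% in the embryo, and FN1 made up 2.15% and 14.9%. TGFBI, a relative of POSTN with the same kind of domains, had 7.99 FPKM in the adult against 26.8 FPKM in the embryo, a 3.35-fold lower level that is far from the 59.0-fold of POSTN. Log2 ratios near those of FN1 were found for VCAN, the proteoglycan versican (-2.92), for 1 transcript of TNC (-2.95) and for THBS3 (-2.12). The other transcript of TNC, tenascin C, which binds fibronectin, had a log2 ratio of -3.88. SPP1, osteopontin, had a log2 ratio of -3.89. In the other direction, EFEMP1, fibulin 3, had 8.08 FPKM in the adult against 0.289 FPKM in the embryo and stays higher in the adult under the 4 scalings. CTGF (log2 ratio 2.14), SPARCL1 (2.13), CYR61 (1.92) and FBLN1, a fibronectin-binding fibulin (1.22), were higher in the adult as deposited. Their log2 ratios fall below 0 under each of the 4 scalings. By the 2-fold limit, 11 of the 15 transcripts were lower when centred on ribosomal proteins or on the table median. At equal FPKM totals or centred on housekeeping genes, 14 were.

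**Figure D5:**
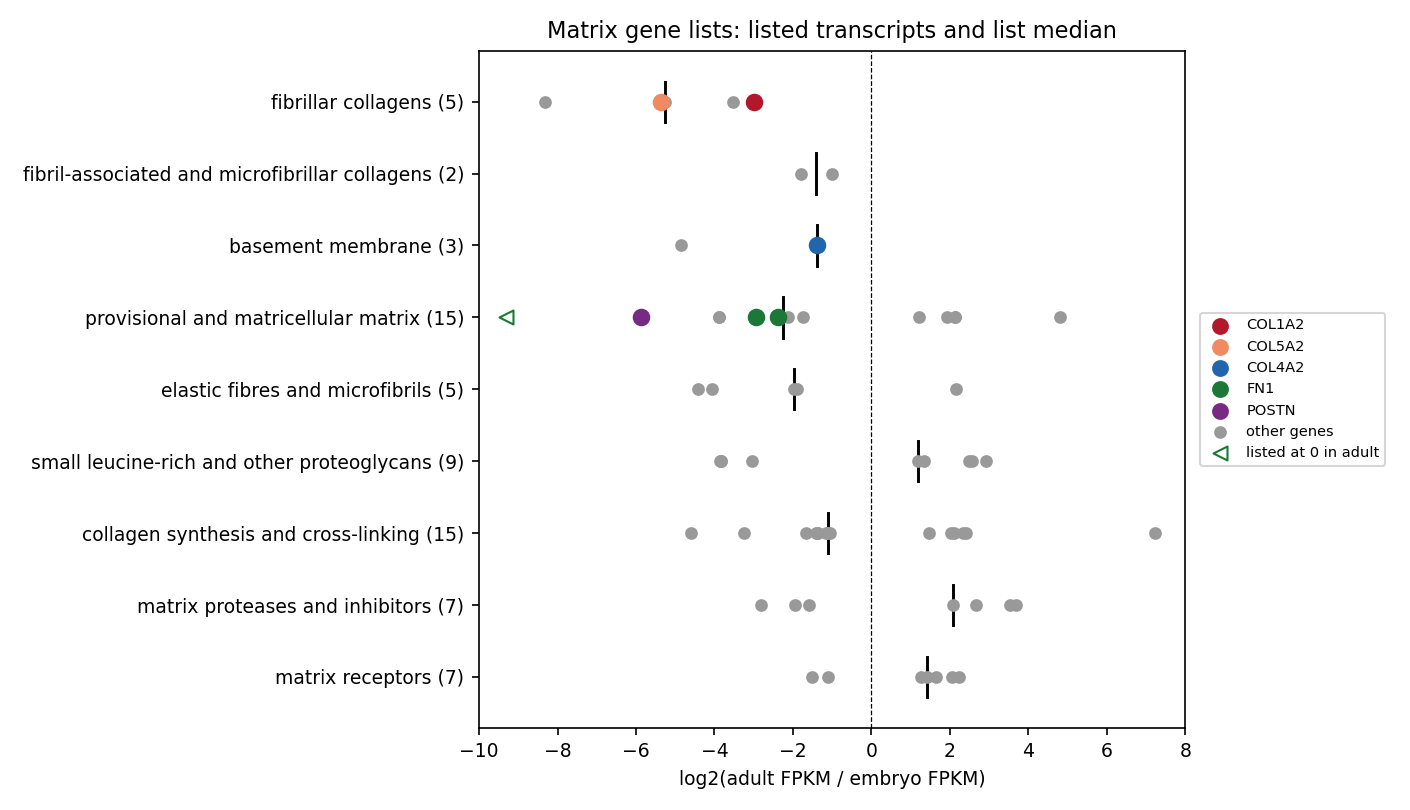
Log2(adult FPKM / embryo FPKM) of every listed transcript of 9 matrix gene lists (grey points), with the members in colour, the list median as a black bar and the number of transcripts in brackets. The open triangle at the left edge is the FN1 transcript listed at 0 in the adult, and its place on the axis carries no value. The listed collagens and basement membrane genes lie below 0, and the other lists have transcripts on both sides.

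Genes that make, modify, cut or bind the members' proteins were listed in both directions as deposited. Of 34 symbols for collagen synthesis and cross-linking, 15 are listed, 9 lower and 6 higher in the adult (median log2 ratio -1.12), and 14 are lower when centred on housekeeping genes. SERPINH1, the collagen chaperone HSP47, had 40.0 FPKM in the adult against 86.7 FPKM in the embryo, a 2.17-fold lower level, smaller than that of COL1A2, COL5A2 and COL4A2. LEPREL1, a prolyl 3-hydroxylase that acts on collagens, had a log2 ratio of -3.24, between those of COL1A2 and COL5A2. PCOLCE2, an enhancer of procollagen processing, had 19.4 FPKM in the adult against 0.129 FPKM in the embryo and stays higher in the adult under the 4 scalings. Elastic fibre genes were lower in 4 of 5 transcripts and proteoglycans in 4 of 9. Of 7 transcripts of proteases and inhibitors, 3 were lower, among them MMP14, a membrane-bound protease that cuts type I collagen and fibronectin, with 3.84 FPKM in the adult against 26.8 FPKM in the embryo. A transcript written MMP-16 was not matched to the list symbol MMP16 and is not counted. It was also lower, with 0.623 FPKM in the adult against 1.87 FPKM in the embryo. Of 7 receptor transcripts, 5 were higher in the adult as deposited. Among them were ITGAV (log2 ratio 2.22) and ITGB5 (2.06), integrin subunits that bind fibronectin or periostin, and ITGA1 (1.64), a subunit of a collagen receptor. The log2 ratios of all 5 fall below 0 under each of the 4 scalings. MRC2 (log2 ratio -1.50) and ITGA9 (-1.09) were lower in the adult as deposited and stay lower under the 4 scalings. By the 2-fold limit, 3 of the 7 were lower when centred on ribosomal proteins and 5 on the table median. All 7 were lower at equal FPKM totals or centred on housekeeping genes. Over the 9 lists together, 42 of 68 transcripts (61.8%) were lower in the adult as deposited, against 9.68% over the whole table. Without the members, 35 of 61 were lower.

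The annotation in the table links the members in part. COL1A2, COL5A2 and COL4A2 carry collagen terms, COL4A2 and FN1 the basement membrane, COL1A2 and COL5A2 both collagen fibril organization and SMAD binding, and FN1 and POSTN cell adhesion. COL5A2 and POSTN carry no KEGG label, whereas COL1A2, COL4A2 and FN1 are in the KEGG pathways of matrix and receptor interaction and of focal adhesion. Of 10 transcripts annotated to collagen fibril organization, 9 were lower in the adult (median log2 ratio -3.67), with COL1A2 above and COL5A2 below this median. The exception was ANXA2, an annexin, which was higher as deposited with 88.6 FPKM in the adult against 39.3 FPKM in the embryo, and turns lower under the 4 scalings. All 7 transcripts annotated as structural constituents of the matrix were lower (median -4.06). They are those of COL1A2, COL5A2 and COL4A2 themselves and of COL11A1, COL1A1, COL2A1 and FBN3. Apart from ANXA2, the transcripts of both terms are also in the 9 matrix lists, so these counts repeat transcripts already counted. Other labels of the members had smaller lower shares as deposited, though each share was above the 9.68% over the whole table. For SMAD binding, 4 of 12 transcripts were lower (median log2 ratio 1.81), COL1A2 and COL5A2 among them. Without the members, 22 of 72 were lower for cell adhesion (median 1.61) and 15 of 61 for focal adhesion (1.90). The counts were 7 of 15 for the basement membrane (1.17), 34 of 70 for extracellular matrix (1.14) and 17 of 26 for collagen (-1.57). In the KEGG pathway of matrix and receptor interaction, 18 of 28 transcripts were lower in the adult, and 13 of 23 without the members. In a division made after the values were seen, 10 of 11 transcripts of its secreted proteins other than the members were lower, and 3 of 12 transcripts of integrins, syndecans and CD47. The other 9 of these 12 turn lower under at least 3 scalings.

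None of the transcripts nearest to a member, by the distance between log2 FPKM values in both stages, belonged to the 9 matrix lists. For COL1A2 they were the cardiac actin ACTC1 (distance 1.12), the growth factor IGF2 (1.51) and FAM213B (1.96), so that no transcript of another gene lay within 1 log2 unit of COL1A2. For COL5A2 they were TNNT2, the cardiac and embryonic troponin T (0.919), an unnamed gene (ENSBTAG00000032452, 1.07) and NRK (1.09). For COL4A2 they were the alpha-tubulin TUBA1A (0.0903), FKBP9 (0.119) and DDAH2 (0.162), all far closer than for the other members. For the most abundant FN1 transcript they were ISLR (0.332), the apelin receptor APLNR (0.343) and the carboxypeptidase CPE (0.405). For POSTN they were TNNT2 again (0.687), the beta-tubulin TUBB2B (0.772) and ARHGAP36 (0.919). TNNT2, with 1.16 FPKM in the adult against 58.2 FPKM in the embryo, was thus nearest to both COL5A2 and POSTN. The likeness is over 2 values per transcript and is a description.

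Markers of the cells in the tissue differed between the stages beside the members. All 10 listed transcripts of muscle fibre markers (9 of 15 symbols) were higher in the adult, with a summed FPKM of 142756 against 4467 in the embryo, and 5 of 7 transcripts of muscle precursor and embryonic fibre markers (7 of 14 symbols) were lower, with 425 against 1886. Fibroblasts are a main source of COL1A2, COL5A2, FN1 and POSTN, and 3 of 16 of their marker symbols are listed. TWIST2 (0.177 FPKM in the adult against 1.67 in the embryo) and OSR1 (0.607 against 1.94) were lower in the adult, and PDGFRA (15.7 against 6.48) was higher, a direction that turns under the 4 scalings. All 4 cartilage transcripts (of 12 symbols; summed FPKM 0.682 in the adult against 19.8 in the embryo) and all 3 Schwann cell transcripts (of 8; 0.689 against 18.9) were lower. All 4 endothelial transcripts (of 8 symbols), whose cells make COL4A2, were higher, with 42.7 FPKM in the adult against 11.3 in the embryo, and each turns lower under at least 2 scalings. The pericyte and smooth muscle list had 4 of 5 transcripts higher (of 8 symbols; 205 against 40.3 FPKM), with 3 of the 4 turning under some scaling. Of 8 symbols each, 2 leukocyte transcripts (44.5 against 7.30 FPKM) and 2 adipocyte transcripts (128 against 1.53 FPKM) were higher, and both leukocyte transcripts turn lower under some scaling. Of 6 tendon symbols, TNMD (0.142 against 0.636 FPKM) was lower and EGR1 (6.69 against 1.44 FPKM) higher, the last turning under the 4 scalings. Of all these marker transcripts, 1 of TNNT3, a fast troponin T, is listed at 0, in the embryo. The part of a different mix of cells in the members' values was not tested.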

How the data were processed

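RNA-seq data of longissimus muscle from 3 adult and 3 embryonic Qinchuan cattle were used. Trim Galore (trimming), TopHat2 2.0.14 (alignment to bosTau7) and Cufflinks (assembly) are the tools the authors name, and they deposited FPKM values, 1 per stage and transcript, for the transcripts they called different. Coordinates are those of the table, and bosTau7 is the genome named in the study's methods. The build was not checked here. The table's columns of fold changes, p-values and q-values, and the deposited GO enrichment tables, hold the authors' own comparisons and were not used.

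Ratios are log2 of adult over embryonic FPKM, computed from the FPKM values without a pseudocount (Python 3.11.15, numpy 2.4.6, pandas 2.3.3) and tested on simulated data. A transcript listed at 0 in 1 stage enters counts and no median. Lower or higher means at least 2-fold, whereas turning lower under a scaling means only that the log2 ratio falls below 0. Ribosomal proteins (72 transcripts) and housekeeping genes (19 transcripts) were used for centring only. The text names all member transcripts, the listed fibrillar collagens and basement membrane genes, up to 6 transcripts of each other list with the largest change, those going against their list, and the 3 transcripts nearest to each gene. Not all of these are printed, and SERPINH1, PCOLCE, VCAN, TGFBI and ANXA2 were named after their values were seen. Members and lists were chosen with earlier results of these data known. Lists were matched by exact symbol, so a gene written otherwise, such as MMP-16 for MMP16, was missed. Symbols without a matching row were not analysed here. Protein and promoter sequences were not used here.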

Additional observations from a re-analysis of the deposited data

How the results depend on the processing

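No paired analysis was possible because the table holds 1 value per stage and no column of a single animal, and for the same reason no replicate could be left out. No alternative could turn the direction of a member, since the scalings subtract a constant from ratios that are already negative and neither a pseudocount nor a filter changes a sign, so the 49 values of single member transcripts (from -9.37 to -1.32) show only how far the sizes move. Their median log2 ratio, -2.97 as reported, was -2.42 with a pseudocount of 1 and -3.00 with one of 0.1, -5.27 centred on ribosomal proteins, -5.67 on the table median and -6.46 on housekeeping genes, -6.22 at equal FPKM totals, -2.93 with an FPKM of at least 1 in both stages, and -3.00 over genes. Shares of the member FPKM moved by at most 5.05 percentage points among the genes kept. The filter of at least 1 FPKM in both stages removes POSTN, whose share was 0.796% in the adult and 5.58% in the embryo.

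With an FPKM of at least 1 in both stages, the transcripts lower in the adult numbered 3 of the 3 left for fibrillar collagens, 5 of 9 for the provisional matrix, 1 of 5 for proteoglycans and 1 of 2 for proteases, fewer because the filter removes transcripts. With a 4-fold minimum they numbered 0 of 2 for the fibril-associated collagens, 1 of 3 for the basement membrane, 2 of 5 for elastic fibres, 2 of 15 for collagen synthesis, 1 of 7 for proteases and 0 of 7 for receptors. With a pseudocount of 1 they numbered 1 of 2 for the fibril-associated collagens, 2 of 9 for proteoglycans and 1 of 7 for receptors, and 2 of 7 proteoglycans were lower when the larger of both FPKM values had to exceed 2. Centring on housekeeping genes gave 14 of 15 for collagen synthesis and 7 of 7 for receptors, equal FPKM totals gave 7 for receptors, and the table median gave 5. The list medians that are positive as deposited turn negative under the 4 scalings (equal totals, table median, ribosomal proteins, housekeeping genes): proteoglycans with -2.08, -1.53, -1.13 and -2.32, proteases with -1.17, -0.62, -0.22 and -1.41, and receptors with -1.83, -1.28, -0.88 and -2.07. For proteases the median is also negative (-0.36, over 2 transcripts) with an FPKM of at least 1 in both stages. The medians of the proteases leave out MMP-16, which was lower in the adult. The shifts come from called transcripts, which were mostly higher in the adult. The table gives no fragment counts per transcript, so the precision of values under 1 FPKM could not be computed.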

Other observations

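COL1A1 stood below COL1A2 in both stages, with 0.151 times its FPKM in the adult and 0.215 times in the embryo, although both are per exon length and the type I trimer holds more alpha 1 than alpha 2 chains. With 1 listed transcript for each gene, transcripts of COL1A1 outside the table are not counted in this ratio.

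PCOLCE and PCOLCE2, related enhancers of procollagen processing, stood at nearly the same level in the adult (21.7 and 19.4 FPKM). In the embryo they stood at 68.6 and 0.129 FPKM. PCOLCE2 had the highest log2 ratio of the 9 matrix lists, at 7.24, and its embryonic value is far under 1 FPKM.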
